A study of Mus musculus with 13 samples.

Results

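Mitosis is the stage of the cell cycle in which a cell separates its copied chromosomes and divides. The genes described here are 48 mouse genes that encode its machinery, given as a list of symbols and taken wherever the symbol was present in the expression table of every library. All 48 were present among the 23361 gene symbols of each table. They were grouped by known role into 8 genes of mitotic entry, 10 of the spindle checkpoint and anaphase, 6 of the kinetochore, 4 of the chromosomal passenger complex, 7 of the spindle and its motors, 6 of cytokinesis and 7 of chromosome structure and related functions. RNA came from liver tumours of mice on a mixed (C57BL/6; 129Sv) background that carried a germline deletion of Mst1 (Mst1-/-) together with Mst2Flox/Flox alleles, which were recombined in the liver by an injected adenovirus expressing Cre. These 2 kinases restrain Yap, a transcriptional co-activator. Hepatocellular carcinoma was detected by ultrasound, and mice were then randomly given intravenous lipid nanoparticles with an siRNA against Yap (siYap-LNPs, 5 libraries, siYap below) or against luciferase (siLuciferase-LNPs, 8 libraries, siLuc below) for 9 days. Both groups therefore carried the Mst1 and Mst2 deletions, the nanoparticle and an established tumour. The age of the mice is not given in the sources used here, and no group without a tumour or without nanoparticles was analysed here. The comparison addresses how the tumour transcriptome differs when Yap is lowered.

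Entry into mitosis is driven by the kinase Cdk1 bound to A and B cyclins. Kinetochores then attach chromosomes to spindle microtubules, the spindle checkpoint holds back the anaphase-promoting complex until all are attached, and that complex, with its activator Cdc20, triggers separation of the sister chromatids. Most hepatocytes of an adult liver rest outside the cell cycle, so transcripts of this kind are scarce there and are widely used as a measure of proliferation in liver tumours.

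Library totals, in estimated fragments over all genes, spanned 23637021 (siYap replicate 1) to 37043914 (siLuc replicate 8). Yap1, the targeted gene, stood between 8.10 and 11.9 FPKM (fragments per kilobase of transcript, scaled to depth) in siLuc and between 2.22 and 4.17 FPKM in siYap, and its log2 fold change was -1.58 ± 0.17 (SE; adjusted p = 2.36e-05). Stk4, the gene of Mst1, did not exceed 0.0891 FPKM in any library. Transcripts of 8 hepatocyte genes, among them Ttr and Apoa1, summed to 11972 to 19373 FPKM in siLuc and 9834 to 14730 FPKM in siYap. Of these 8, 3 fell (Serpina1c, Cps1 and Fgb), Tat rose with a log2 fold change of 1.56, and 4, Ttr and Apoa1 among them, did not pass the test. Some libraries stood apart. siYap replicates 1 and 3 had 1160 and 1882 CPM (counts relative to library size) of the ribosomal precursor Rn45s, against at most 812 CPM in the other 11 libraries, and siLuc replicate 8 was the only male library, where 4 Y-linked genes held 28874 fragments and at most 11 in each of the other 12. File names carry a code whose first digit is 6, 7 or 8. They also carry a number that some libraries of 1 group share, with 5 such numbers in siLuc and 3 in siYap. The labels explain neither the digit nor the number, and they do not say which libraries are separate animals. Each p-value therefore reflects only how much these libraries vary, which may be technical in part.

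Transcripts of the mitosis genes were lower in the siYap tumours. Each of the 7 role groups held at least 1 gene that fell. With 14.8% of all tested genes called lower, 1 such gene in a small group carries little weight. Of the 48 genes, all passed the filter on low counts, 25 fell (52.1%), none rose and 23 did not pass the test (edgeR quasi-likelihood test, Benjamini-Hochberg adjusted p under 0.05 over all 15132 genes tested). Over all tested genes 14.8% were called lower and 16.0% higher. The log2 fold change was below 0 for 46 of the 48, and its median was -0.89 against -0.00 over all tested genes. It ran from -2.21 for the checkpoint kinase Ttk to 0.15 for the transcription factor Foxm1. In bulk tissue, a smaller share of dividing cells and less of these transcripts per dividing cell cannot be told apart.

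**Figure D1:**
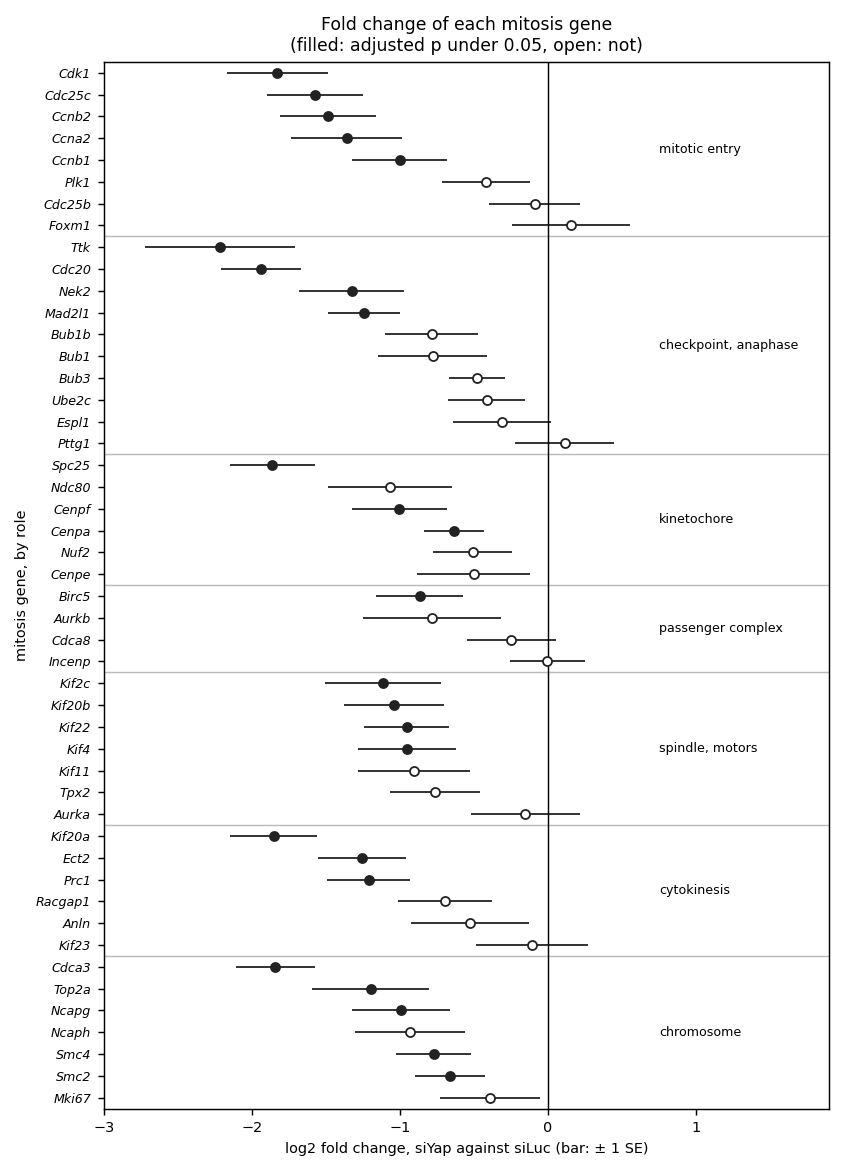
Log2 fold change of each of the 48 mitosis genes (x axis, siYap against siLuc, edgeR; bars are 1 SE), grouped by role (y axis); filled points had an adjusted p under 0.05 and open points did not. All 25 filled points lie left of 0, and the 2 points right of 0, Foxm1 and Pttg1, are open.

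The count of 25 depended on single libraries of both groups. Leaving out siYap replicate 3, 4 or 5 left 13, 13 and 14 genes lower, against 10.5%, 13.2% and 13.5% of all genes in those fits. Leaving out siYap replicate 1 raised the count to 33, against 13.4% of all genes. None of the 48 was called higher in any of the 13 fits that each left out a library. Calls of 13 genes held in all 13 of these fits: Cdk1, Ccna2, Ccnb2, Cdc25c, Cdc20, Mad2l1, Ttk, Nek2, Spc25, Kif20a, Prc1, Ect2 and Cdca3. None of them belongs to the passenger complex or to the spindle and motor group. The other 12 lost the call in at least 1 of them, and 8 genes that had missed the threshold passed it in at least 1. Without the 2 libraries rich in Rn45s, siYap replicates 1 and 3, 19 genes were lower, against 9.56% of all genes tested in that fit, and all 19 were among the 25. Without the male library, siLuc replicate 8, 18 were lower, against 13.7% of all genes. Leaving out siLuc replicate 2 or 6 left 17 and 19 lower, against 13.9% and 13.3%. Leaving out siLuc replicate 1 gave 30, against 14.8%.

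In levels per transcript length, averaged over the siLuc libraries, the genes spanned 0.322 FPKM for the separase gene Espl1 to 31.2 FPKM for the condensin gene Smc4, with a median of 3.97 FPKM. The median over the genes was 1.96 FPKM in siYap. The lowest count of any mitosis gene in any library was 15 fragments. Only 7 genes had all 5 siYap libraries below all 8 siLuc libraries in FPKM (14.6%, against 5.66% of all tested genes): Cdk1, Ccnb2, Cdc25c, Cdc20, Spc25, Kif20a and Cdca3. For the other 41 the groups overlapped.

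Promoters of many mitosis genes are known to share a short element, the cell cycle genes homology region, often placed downstream of CCAAT boxes. The MuvB complexes bind the former and the factor NF-Y the latter. RefSeq promoter sequences (build GRCm38.p6, 300 bases: 250 before to 50 after the start) were at hand for 40 of the 48 genes. Entries were not found for Aurkb, Incenp, Smc4, Cdc25c, Foxm1, Ccna2, Kif20a and Tpx2. The stretches of 100 bases directly upstream of the start of 9 genes are shown because they place the letters in view for genes that fell (Cdk1, Ccnb1, Cdc20, Cenpa, Kif22 and Top2a) and for genes that did not pass the test (Kif11, Ube2c and Espl1). All 9 stretches hold both motifs named below, so they do not represent the 40 genes. Each reads 5′ to 3′ on the gene's strand, and capitals mark the hexamers TTTGAA or TTTAAA and the box CCAAT on either strand, so that TTCAAA and ATTGG are the same motifs read from the other strand.
Cdk1 (chr10:69352913-69353012, minus strand): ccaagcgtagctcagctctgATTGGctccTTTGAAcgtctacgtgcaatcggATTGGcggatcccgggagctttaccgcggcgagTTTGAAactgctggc
Ccnb1 (chr13:100786487-100786586, minus strand): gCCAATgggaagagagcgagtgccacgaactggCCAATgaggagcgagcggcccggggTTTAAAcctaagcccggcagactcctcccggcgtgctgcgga
Cdc20 (chr4:118437344-118437443, minus strand): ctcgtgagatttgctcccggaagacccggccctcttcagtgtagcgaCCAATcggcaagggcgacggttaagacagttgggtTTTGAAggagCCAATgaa
Cenpa (chr5:30666786-30666885, plus strand): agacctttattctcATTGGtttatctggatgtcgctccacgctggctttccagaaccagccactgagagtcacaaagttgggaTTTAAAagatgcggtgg
Kif11 (chr19:37376282-37376381, plus strand): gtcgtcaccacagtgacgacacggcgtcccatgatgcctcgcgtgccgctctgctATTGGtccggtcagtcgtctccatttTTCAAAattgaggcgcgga
Kif22 (chr7:127042421-127042520, minus strand): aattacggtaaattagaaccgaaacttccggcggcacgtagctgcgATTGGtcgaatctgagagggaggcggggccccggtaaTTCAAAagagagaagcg
Top2a (chr11:99024190-99024289, minus strand): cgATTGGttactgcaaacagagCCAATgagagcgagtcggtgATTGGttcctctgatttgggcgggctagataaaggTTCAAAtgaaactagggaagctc
Ube2c (chr2:164769829-164769928, plus strand): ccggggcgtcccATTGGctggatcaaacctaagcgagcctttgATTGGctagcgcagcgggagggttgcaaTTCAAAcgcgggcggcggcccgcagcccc
Espl1 (chr15:102296193-102296292, plus strand): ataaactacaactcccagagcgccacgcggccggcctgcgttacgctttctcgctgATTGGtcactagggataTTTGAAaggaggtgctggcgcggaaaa

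A hexamer TTTGAA or TTTAAA, on either strand and anywhere in the 300 bases, was present in the promoters of 33 of the 40 genes (82.5%), against 30.6% of the 27025 genes with an entry and 23.6% of the 11058 of these that were tested for expression. CCAAT was present in 31 of 40 (77.5%), against 41.1% and 42.7%. Both together were found in 28 of 40 (70.0%), against 12.2% and 9.52%. In 1 gene a hexamer overlapped a CCAAT box. In some genes, such as Spc25 and Ttk, the only hexamer lay after the start. Among mitosis genes that fell, 19 of 21 with an entry held a hexamer (90.5%), and among those that did not pass the test 14 of 19 did (73.7%). The upstream stretches of Ube2c and Espl1 hold the same motifs as that of Cdk1, while their log2 fold changes were -0.41 (adjusted p = 0.236) and -0.31 (adjusted p = 0.498) against -1.83 for Cdk1. For comparison, 10 of 41 genes of DNA replication held a hexamer (24.4%) and 27 of 41 a CCAAT box (65.9%). A match is a description of the letters and not evidence of binding.

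Among the 8 genes of mitotic entry, 5 fell, and the median log2 fold change was -1.18. Cdk1 (chromosome 10, 69335146 to 69352938, minus strand), the kinase that drives entry, ranged from 3.89 to 11.8 FPKM in siLuc with a median of 6.41. In siYap replicates 1 to 5 it stood at 3.25, 2.66, 1.02, 1.67 and 1.29 FPKM. Every siYap value lay below every siLuc value, and the highest siYap library, replicate 1, came close to the lowest siLuc library, replicate 1. Its log2 fold change was -1.83 ± 0.34 (SE; adjusted p = 0.00125), which is 3.55-fold lower. Ccna2 (chromosome 3, 36564865 to 36572150, minus strand), cyclin A, had 4.76 to 24.4 FPKM in siLuc with a median of 11.4. Its siYap values were 8.05, 5.69, 2.46, 4.15 and 4.82 FPKM. Here the groups overlapped: siLuc replicate 1, the lowest control, lay below 3 of the siYap libraries, siYap replicate 1 lay above siLuc replicate 5, and the log2 fold change was -1.36 ± 0.37 (SE; adjusted p = 0.0143).

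The B cyclins, the partners of Cdk1, fell as well. Ccnb2 went from 5.49 ± 2.34 FPKM (SD, n = 8) to 1.91 ± 0.655 FPKM (SD, n = 5), with a log2 fold change of -1.48 and an adjusted p of 0.00351. Ccnb1 went from 5.99 ± 2.15 to 2.84 ± 1.07 FPKM (SD), with -1.0 and an adjusted p of 0.0273, and this call was lost without siYap replicate 3, 4 or 5 (adjusted p 0.0512 to 0.0624). The phosphatases that activate Cdk1 differed. Cdc25c had a log2 fold change of -1.57 (adjusted p = 0.00241), while Cdc25b stood at 1.08 ± 0.297 and 0.975 ± 0.479 FPKM with -0.09 (adjusted p = 0.845). Plk1, a kinase of entry and exit, had -0.42 (adjusted p = 0.302). Foxm1 (chromosome 6, 128362967 to 128376146, plus strand), a transcription factor of late cell cycle genes, had 0.160 to 0.757 FPKM in siLuc with a median of 0.30. It had 0.675, 0.351, 0.490, 0.188 and 0.254 FPKM in siYap. These ranges overlapped almost entirely, with a log2 fold change of 0.15 ± 0.40 (SE; adjusted p = 0.790).

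**Figure D2:**
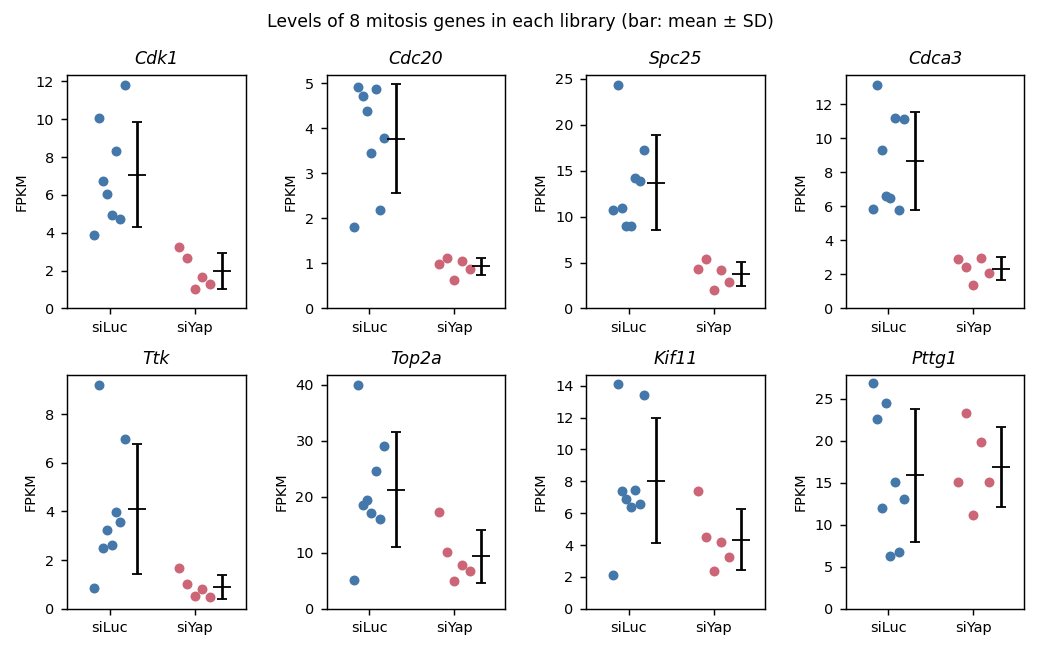
Levels (y axis, FPKM, each panel with its own scale from 0) of 8 mitosis genes in the 8 siLuc and 5 siYap libraries; each point is a library and the bar is the mean ± SD. For Cdk1, Cdc20, Spc25 and Cdca3 every siYap point lies below every siLuc point, while for Ttk and Top2a the lowest siLuc library stands at the level of the siYap points. For Kif11 the lowest siLuc library lies below all siYap points, and siYap replicate 1 lies above the siLuc median. For Pttg1 the groups overlap.

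Among the 10 genes of the checkpoint and anaphase, 4 fell, and the median log2 fold change was -0.78. The smallest p of all mitosis genes was that of Cdc20 (chromosome 4, 118432901 to 118437352, minus strand), the activator of the anaphase-promoting complex. It ranged from 1.81 to 4.91 FPKM in siLuc with a median of 4.08. In siYap it had 0.990, 1.11, 0.625, 1.06 and 0.885 FPKM. All 5 siYap libraries were close together and below all controls, with a log2 fold change of -1.94 ± 0.27 (SE; adjusted p = 0.000144), which is 3.83-fold lower. Ttk (chromosome 9, 83834689 to 83872389, plus strand), the kinase that starts checkpoint signalling, showed the largest fall, with a log2 fold change of -2.21 ± 0.50 (SE; adjusted p = 0.00492). Its siLuc values ran from 0.842 to 9.18 FPKM with a median of 3.38, and its siYap values were 1.70, 1.0, 0.542, 0.803 and 0.465 FPKM. siLuc replicate 1, the lowest control, lay below siYap replicates 1 and 2, and the other 7 controls lay above all treated libraries.

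Mad2l1, the checkpoint protein that binds Cdc20, fell from 10.8 ± 3.30 FPKM (SD, n = 8) to 4.77 ± 1.14 FPKM (SD, n = 5), with a log2 fold change of -1.24 and an adjusted p of 0.00176. Nek2, a centrosome kinase, fell by 1.33 on the log2 scale (adjusted p = 0.0115). The checkpoint genes Bub1, Bub1b and Bub3 did not pass the test. Bub1 and Bub1b had -0.78 (adjusted p = 0.120) and -0.79 (adjusted p = 0.0682), and both passed without siYap replicate 1 (adjusted p = 0.0452 and 0.0189), Bub1b also without siLuc replicate 1 (adjusted p = 0.0184). Bub3 (chromosome 7, 131560222 to 131571895, plus strand), which recruits both of them to kinetochores, ranged from 14.6 to 22.8 FPKM in siLuc with a median of 16.7. It had 10.03, 15.4, 6.87, 15.6 and 14.8 FPKM in siYap, so that siYap replicates 1 and 3, the libraries rich in Rn45s, were the lowest. Its log2 fold change was -0.48 ± 0.19 (SE; adjusted p = 0.0657).

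Genes of anaphase itself did not pass the test. Pttg1 (chromosome 11, 43420250 to 43426251, minus strand), securin, which holds separase inactive, ranged from 6.27 to 26.8 FPKM in siLuc with a median of 14.1. In siYap it stood at 15.04, 23.3, 11.2, 19.9 and 15.1 FPKM. The siYap values lay within the siLuc range, and the log2 fold change was 0.11 ± 0.33 (SE; adjusted p = 0.818). siLuc replicate 1, lowest for 39 of the mitosis genes, was the highest control for Pttg1. Espl1, separase, stood at 0.322 ± 0.118 and 0.244 ± 0.105 FPKM. Ube2c, the ubiquitin-conjugating enzyme of the anaphase-promoting complex, stood at 4.48 ± 1.41 and 3.29 ± 0.724 FPKM (SD).

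Of 6 kinetochore genes 3 fell, with a median log2 fold change of -0.82. Spc25 (chromosome 2, 69193895 to 69206194, minus strand), a subunit of the Ndc80 complex that grips microtubules, ranged from 8.99 to 24.4 FPKM in siLuc with a median of 12.4. Its siYap values were 4.30, 5.39, 2.05, 4.23 and 2.93 FPKM. The groups did not overlap, and the log2 fold change was -1.86 ± 0.29 (SE; adjusted p = 0.000314), which is 3.64-fold lower. Subunits of the same complex had smaller fold changes. Nuf2 (chromosome 1, 169497934 to 169531464, minus strand) ranged from 3.04 to 10.2 FPKM in siLuc with a median of 5.04, and had 6.62, 3.11, 3.28, 3.30 and 3.85 FPKM in siYap. Every siYap value of Nuf2 lay above the lowest control, and its log2 fold change was -0.51 ± 0.27 (SE; adjusted p = 0.156). Ndc80 had a larger estimate, -1.07, with an adjusted p of 0.0637, which fell below the threshold without siLuc replicate 1 (0.0170) or siYap replicate 1 (0.0348).

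The centromere proteins differed in the same way. Cenpa, the histone variant that marks centromeres, fell from 3.84 ± 0.716 FPKM (SD, n = 8) to 2.52 ± 0.703 FPKM (SD, n = 5), with a log2 fold change of -0.63 (adjusted p = 0.0268). Cenpf, of the outer kinetochore, fell by 1.0 on the log2 scale (adjusted p = 0.0275). Both calls were lost without siYap replicate 3 or 4, that of Cenpf also without replicate 5 (adjusted p 0.0628 to 0.0661 for Cenpa and 0.0657 to 0.0791 for Cenpf). Cenpe, a kinetochore motor, had -0.50 (adjusted p = 0.331), and passed the threshold without siYap replicate 1 (adjusted p = 0.0414).

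The chromosomal passenger complex, which corrects wrong attachments, had 1 of 4 genes called lower and the smallest median fold change of the role groups, -0.52. Birc5 (chromosome 11, 117849251 to 117855743, plus strand), survivin, ranged from 2.30 to 11.03 FPKM in siLuc with a median of 6.04. In siYap it had 4.57, 2.25, 1.69, 1.82 and 1.69 FPKM. The treated library with the highest level was replicate 1, and the other 4 lay below all controls. The log2 fold change from counts was -0.87 ± 0.29 (SE; adjusted p = 0.0365), a 1.82-fold lower level, while mean FPKM were 2.73-fold lower. The call was lost without siLuc replicate 2, 5, 6 or 8 and without siYap replicate 2, 3, 4 or 5 (adjusted p 0.0518 to 0.0850).

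The kinase of the complex, Aurkb (chromosome 11, 69045647 to 69051664, plus strand), ranged from 0.333 to 3.67 FPKM in siLuc with a median of 1.87, and had 1.96, 0.879, 0.951, 1.08 and 0.358 FPKM in siYap. Its range in siYap lay within that of the controls, with a log2 fold change of -0.79 ± 0.47 (SE; adjusted p = 0.213). Its scaffold, Incenp (chromosome 19, 9872296 to 9899551, minus strand), ranged from 0.710 to 2.52 FPKM in siLuc with a median of 1.20, and had 1.59, 1.45, 1.58, 1.23 and 0.967 FPKM in siYap. The log2 fold change of Incenp was -0.01 ± 0.25 (SE; adjusted p = 0.989), and its sign changed with the processing. Cdca8, borealin, went from 0.802 ± 0.296 to 0.671 ± 0.141 FPKM (SD; adjusted p = 0.555).

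Among 7 spindle and motor genes 4 fell, and the median log2 fold change was -0.95. Kif20b (chromosome 19, 34922361 to 34975745, plus strand), a motor that acts late in division, ranged from 1.49 to 7.38 FPKM in siLuc with a median of 3.98. In siYap it had 4.08, 2.08, 1.51, 1.57 and 1.77 FPKM. Replicate 1 stood at the level of the controls and the others near the lowest control, with a log2 fold change of -1.04 ± 0.34 (SE; adjusted p = 0.0311). The call was lost without siLuc replicate 2 or 8 or any of siYap replicates 2 to 5 (adjusted p 0.0513 to 0.0887). Kif11 (chromosome 19, 37376403 to 37421859, plus strand), the motor that pushes the spindle poles apart, ranged from 2.15 to 14.1 FPKM in siLuc with a median of 7.14, and had 7.41, 4.49, 2.37, 4.17 and 3.24 FPKM in siYap. All siYap values lay above siLuc replicate 1. Its log2 fold change of -0.91 ± 0.38 (SE) had an adjusted p of 0.0813, which was 0.0135 without siLuc replicate 1 and 0.0435 without siYap replicate 1.

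Kif2c, which removes tubulin from microtubule ends, Kif4, a chromosome-bound motor, and Kif22, which pushes chromosome arms outward, fell by 1.11, 0.95 and 0.95 on the log2 scale (adjusted p = 0.0422, 0.0397 and 0.0211). Calls of Kif2c and Kif4 were lost in 10 and 9 of the 13 fits without a library. For Kif2c these were all but those without siLuc replicates 1 and 7 and siYap replicate 1, and for Kif4 all but those without siLuc replicates 1, 5 and 7 and siYap replicate 1 (highest adjusted p 0.109 and 0.108). That of Kif22 was lost without siYap replicate 3, 4 or 5 (adjusted p 0.0504 to 0.0599). Tpx2, the activator of Aurora A, had -0.76 (adjusted p = 0.0664, and 0.0289 without siLuc replicate 1 or 0.0183 without siYap replicate 1). Aurka, Aurora A itself, had -0.15 (adjusted p = 0.778).

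Of 6 cytokinesis genes 3 fell, and the median log2 fold change was -0.95. Prc1 (chromosome 7, 80294450 to 80316259, plus strand), which bundles the microtubules of the midzone, ranged from 3.88 to 16.1 FPKM in siLuc with a median of 9.50. Its siYap values were 5.51, 4.40, 3.26, 3.76 and 3.24 FPKM. Treated libraries were below the controls except for siLuc replicate 1, which lay within their range, and the log2 fold change was -1.21 ± 0.28 (SE; adjusted p = 0.00511). Ect2 (chromosome 3, 27097222 to 27153878, minus strand), the exchange factor that activates RhoA at the division furrow, ranged from 4.38 to 12.6 FPKM in siLuc with a median of 8.03, and had 4.91, 4.64, 2.95, 3.60 and 2.01 FPKM in siYap. The pattern was the same, with -1.25 ± 0.30 (SE; adjusted p = 0.00585). Kif20a, a midzone motor, fell furthest in this group, from 5.35 ± 2.15 FPKM (SD, n = 8) to 1.40 ± 0.372 FPKM (SD, n = 5), with a log2 fold change of -1.85 and an adjusted p of 0.000373.

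The centralspindlin subunits, which together bring Ect2 to the midzone, did not pass the test. Kif23 stood at 2.17 ± 1.30 and 1.94 ± 0.698 FPKM (SD), with a log2 fold change of -0.11 (adjusted p = 0.846). Racgap1 had -0.70 (adjusted p = 0.104), and 0.0202 without siYap replicate 1. Anln, anillin, a scaffold of the contractile ring, had -0.53 (adjusted p = 0.329).

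Of the 7 genes of chromosome structure and related functions 5 fell, with a median log2 fold change of -0.93. Cdca3, counted here, acts in mitotic entry, and only its call in this group held in every fit without a library. Top2a (chromosome 11, 98992943 to 99024189, minus strand), the topoisomerase that untangles sister chromatids, ranged from 5.12 to 40.0 FPKM in siLuc with a median of 18.9. In siYap it had 17.2, 10.2, 4.96, 7.83 and 6.82 FPKM. siLuc replicate 1 stood among the treated libraries, and siYap replicate 1 at the level of siLuc replicate 5, the third lowest control. The log2 fold change was -1.20 ± 0.40 (SE; adjusted p = 0.0337), and the call was lost without siLuc replicate 2, 6 or 8 or any of siYap replicates 2 to 5 (adjusted p 0.0520 to 0.0909). Smc4 (chromosome 3, 69004738 to 69034623, plus strand), a condensin core subunit, ranged from 15.2 to 48.4 FPKM in siLuc with a median of 29.4, and had 23.8, 23.4, 10.04, 19.3 and 16.8 FPKM in siYap. Only siYap replicate 3 lay below all controls, and the log2 fold change was -0.77 ± 0.25 (SE; adjusted p = 0.0304). This call was lost without siLuc replicate 2 or siYap replicate 3, 4 or 5 (adjusted p 0.0505 to 0.0817).

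The condensin partners of Smc4 within the mitosis list, Smc2, Ncapg and Ncaph, had fold changes of similar size. Condensin genes outside that list varied more. Ncapd2 and Ncapd3 did not pass the test, with log2 fold changes of -0.33 (adjusted p = 0.349) and 0.0045 (adjusted p = 0.989). Ncapg2 and Ncaph2 fell, with -0.97 (adjusted p = 0.0388) and -0.46 (adjusted p = 0.00965). Smc2 fell by 0.66 on the log2 scale (adjusted p = 0.0458), a call held only with all libraries and without siLuc replicate 1 or siYap replicate 1 (adjusted p up to 0.123 in the other 11 fits). Ncapg fell by 0.99 (adjusted p = 0.0345), a call lost in 8 of the 13 fits, those without siLuc replicates 2, 3, 4, 6 and 8 and siYap replicates 3 to 5 (adjusted p 0.0509 to 0.0959). Ncaph had -0.93 (adjusted p = 0.0691), and its adjusted p was 0.0222 when siLuc replicate 1 was left out and 0.0450 when siYap replicate 1 was. Cdca3 (chromosome 6, 124829547 to 124833701, plus strand), a trigger of mitotic entry that marks Wee1 for destruction, ranged from 5.81 to 13.2 FPKM in siLuc with a median of 7.95. It had 2.90, 2.44, 1.37, 2.94 and 2.07 FPKM in siYap. No siYap library reached the lowest control, and the log2 fold change was -1.84 ± 0.27 (SE; adjusted p = 0.000199), which is 3.58-fold lower. Mki67, the proliferation marker Ki-67, stood at 9.65 ± 3.87 FPKM (SD, n = 8) and 6.65 ± 2.26 FPKM (SD, n = 5), and its log2 fold change of -0.39 had an adjusted p of 0.401.

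Exons of 8 mitosis genes overlap, on the opposite strand, those of another tested gene in the GENCODE M21 annotation of GRCm38, over 53 to 1271 bases. These are Ccna2 with Exosc9, Cdc20 with Elovl1, Cdc25b with Spef1, Cdca8 with 9930104L06Rik, Kif20a with Cdc23, Kif4 with Pdzd11, Ncapg with Lcorl and Prc1 with Rccd1. Whether strand was used in counting is not given in the sources used here, so fragments of such pairs may not be separated.

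Within each group the mitosis genes moved together from library to library. siLuc replicate 2 was the highest control for 34 of the 48 genes and siLuc replicate 8 for 10, while siLuc replicate 1 was the lowest for 39. siLuc replicates 1 and 2 share a number in their file names, yet 46 of the 48 genes were higher in replicate 2, by a median of 3.55-fold, against a median of 1.03-fold over all tested genes. The summed CPM of the 48 genes was 437 in siLuc replicate 1 and 1807 in replicate 2, the lowest and the highest of the 8 controls. In siYap, replicate 1 was the highest library for 42 genes and replicate 3 the lowest for 26. The sums were 1002, 578, 393, 455 and 415 CPM in siYap replicates 1 to 5. siLuc replicate 1 lay below siYap replicate 1 for 38 of the 48 genes, and its sum lay within the siYap range. The sum of siYap replicate 1 also lay above those of siLuc replicates 4, 5 and 7 (996, 843 and 883 CPM).

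**Figure D3:**
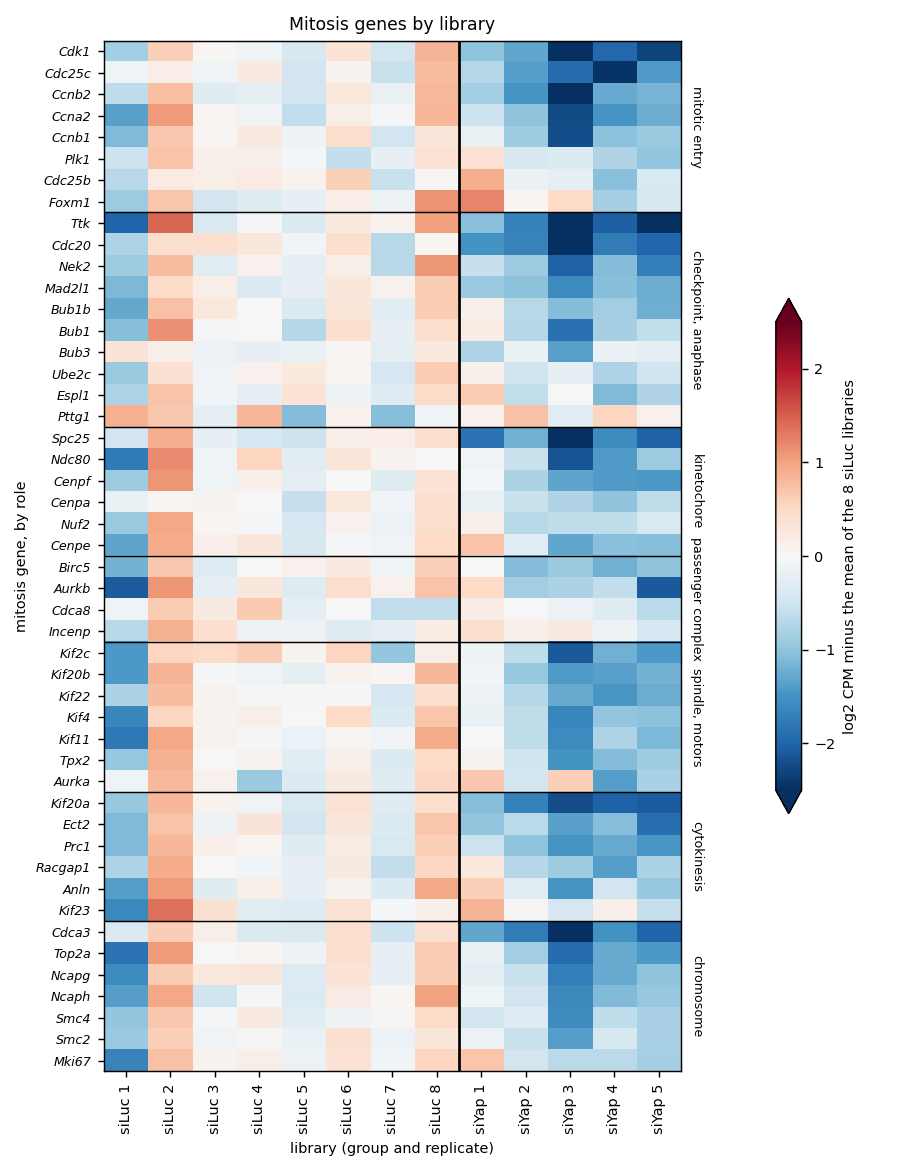
Log2 CPM of each mitosis gene (rows, by role) in each library (columns), as the difference from the mean of the 8 siLuc libraries; blue is lower and red is higher. siLuc replicate 1 is blue in most rows and siLuc replicate 2 red, and among siYap libraries replicate 1 is the palest and replicate 3 the darkest in most rows.

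A score per library, the mean over the 48 genes of log2 CPM relative to the siLuc mean, was -0.98, 0.76, 0.00, 0.04, -0.26, 0.20, -0.27 and 0.51 in siLuc replicates 1 to 8. It was -0.14, -0.70, -1.33, -1.05 and -1.12 in siYap replicates 1 to 5. The groups overlapped: siLuc replicate 1 lay within the siYap range, and siYap replicate 1 lay above siLuc replicates 5 and 7. The mean difference was -0.87. By the first digit of the file code, the difference was -0.31 among the 4 libraries of digit 6, -1.13 among the 7 of digit 7 and -1.63 between the single libraries of digit 8, the latter including the male control. Digit 6 holds siLuc replicates 1 and 2, the lowest and highest controls, and siYap replicates 1 and 2, and the siYap libraries lay between these controls.

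Single genes were compared within each digit, where the group sizes, and so the background shares, differ. In digit 7, 37 of the 48 genes had both siYap libraries below all 5 controls in FPKM (77.1%, against 20.0% of all tested genes). Both of these siYap libraries carry the file-name number 99, and siLuc replicates 5, 6 and 7 carry 96. Libraries that share a number may not be independent. In digit 6, 9 had both siYap libraries below both controls (18.8%, against 22.3% of all tested genes), which is near the background. In digit 8, siYap replicate 5 was below siLuc replicate 8 for 47 of the 48, against 51.0% of all tested genes. Fitted alone with edgeR, the digit 7 libraries gave 33 mitosis genes lower and none higher (11.0% of all genes tested were lower there), and 24 of the 25 genes were among them. The digit 6 libraries alone gave 0 mitosis genes, with 38 genes of all kinds called in either direction and 0.0729% of all genes called lower. The difference between digits was not tested, and digit, file-name number and library cannot be told apart at this size.

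**Figure D4:**
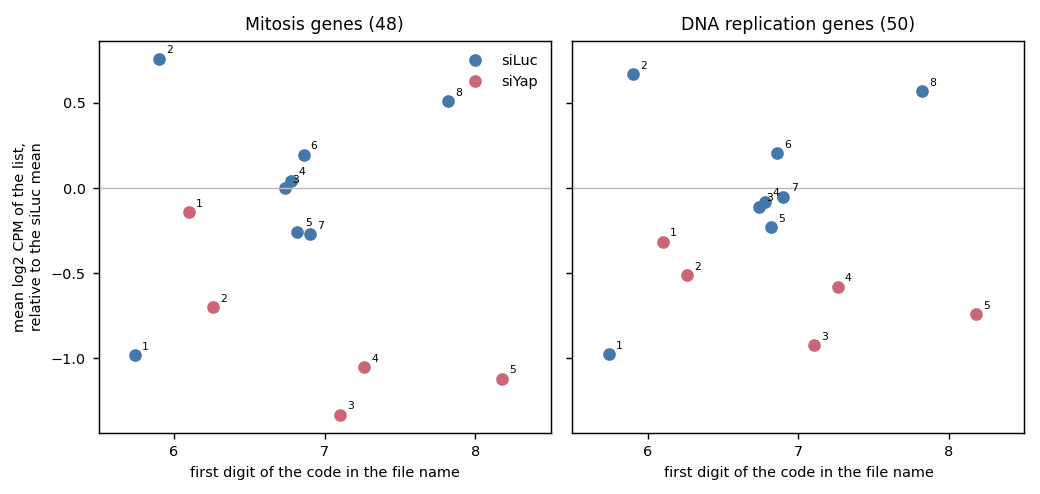
Score of each library (y axis, mean log2 CPM of the list relative to the siLuc mean) by the first digit of the code in its file name (x axis; points are spread sideways for legibility and labelled with the replicate number), for the 48 mitosis genes and for 50 DNA replication genes. In digits 7 and 8 every siYap point lies below every siLuc point, while in digit 6 both siYap points lie between siLuc replicates 1 and 2.

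Other genes of the cell cycle, taken from lists by function, were measured in the same fit. There 14.8% of all tested genes were called lower and 16.0% higher. Of 34 further kinetochore genes 15 fell and 1 rose (median log2 fold change -0.62), and of 30 further spindle and cytokinesis genes 12 fell and 1 rose (median -0.92). Dsn1, a subunit that anchors kinetochores to centromeres, fell from 4.06 ± 1.39 to 1.64 ± 0.449 FPKM (SD; adjusted p = 0.00385). The gene that rose in the kinetochore list was Hjurp, the chaperone that deposits Cenpa, which went from 1.79 ± 0.409 to 3.39 ± 1.25 FPKM (SD; log2 fold change 0.97 ± 0.22 SE; adjusted p = 0.00389), while Cenpa itself fell. Psrc1, a microtubule regulator of the spindle, fell further than any of the 48, from 2.06 ± 0.916 to 0.229 ± 0.119 FPKM (log2 fold change -3.11 ± 0.48 SE; adjusted p = 0.000304). Ckap2, a spindle protein, fell from 3.94 ± 1.15 to 1.02 ± 0.511 FPKM (adjusted p = 0.000369).

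Of 28 regulators of entry 6 fell and 5 rose (median -0.21), shares near the 14.8% lower and 16.0% higher over all tested genes. Cks1b, the small subunit of Cdk complexes, fell from 11.97 ± 2.96 to 3.43 ± 1.42 FPKM (adjusted p = 0.000251). E2f8, an E2F repressor, rose from 0.522 ± 0.294 FPKM (SD, n = 8) to 3.53 ± 1.6 FPKM (SD, n = 5), a log2 fold change of 2.78 ± 0.34 (SE; adjusted p = 5.16e-05). Genes of the anaphase-promoting complex, its co-activator Fzr1 and its enzyme Ube2s had 5 lower, Ube2s among them, and none higher of 16 (median -0.22). The smallest p was that of Anapc4, a core subunit, at 36.7 ± 5.37 and 20.9 ± 3.45 FPKM (adjusted p = 0.000718). Cohesin and other condensin genes had 2 lower and 2 higher of 14 (median -0.02), and centriole and augmin genes 3 lower and none higher of 20 (median -0.11), with shares called lower near the 14.8% of all tested genes. Those with the smallest p were Ncaph2, lower (adjusted p = 0.00965), and the cohesin loader Mau2, higher (adjusted p = 0.00259), in the first list, and Haus3 and Haus8, both lower (adjusted p = 0.000667 and 0.00640), in the second.

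Genes of DNA replication had 21 lower and none higher of 50, with a median of -0.73. Chaf1b, of the chromatin assembly factor, fell from 4.07 ± 1.55 to 1.19 ± 0.303 FPKM (adjusted p = 0.000606), and Prim1, primase, from 16.3 ± 6.05 to 6.33 ± 1.97 FPKM (adjusted p = 0.00195). Their score by digit was -0.26, -0.70 and -1.31 for digits 6, 7 and 8, in the same order as that of the mitosis genes. Of 18 regulators of the preceding gap phase 4 fell, against 14.8% of all tested genes, and none rose (median -0.38). With so few genes this count carries little weight. Among the 4 were Ccne1, cyclin E, with -1.78 (adjusted p = 0.000763), and Cdk4 with -0.70 (adjusted p = 0.000478). Cdc25a, also among the 4, is counted with the regulators of entry as well.

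**Figure D5:**
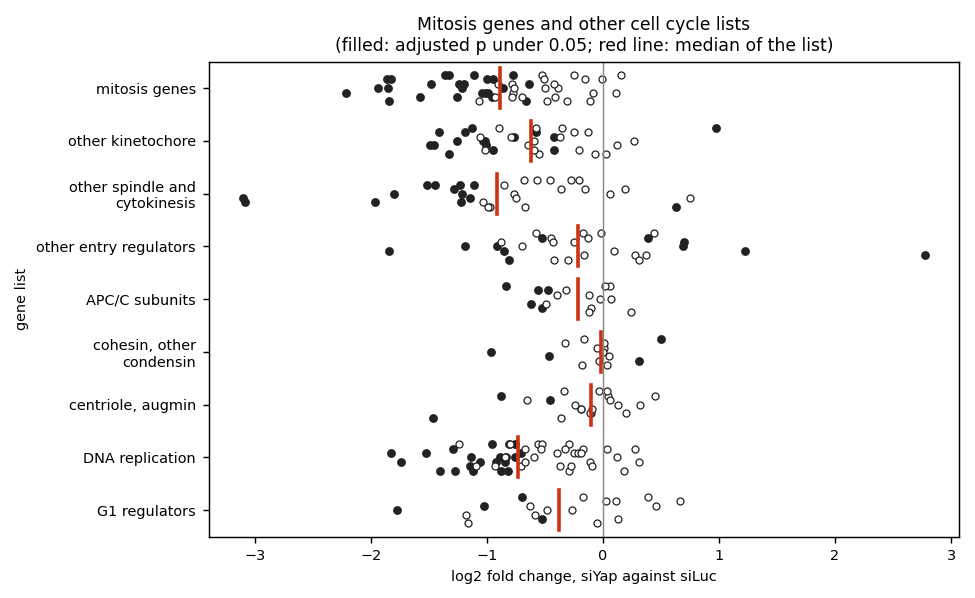
Log2 fold change (x axis, siYap against siLuc, edgeR) of each tested gene in the mitosis list and in 8 other cell cycle lists (y axis); filled points had an adjusted p under 0.05 and the red line is the median of the list. Medians are -0.89 for the mitosis genes, -0.73 for DNA replication and -0.02 for cohesin and other condensin genes.

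Some markers of other cell types also differed between the groups. Over all tested genes 14.8% were called lower and 16.0% higher. All 7 tested neutrophil and precursor markers rose, with a median log2 fold change of 3.29, and their summed level was 34.8 to 206 FPKM in siLuc and 167 to 1283 FPKM in siYap. siYap replicate 1, the treated library with the highest mitosis score, also had the highest neutrophil sum, and siYap replicate 5, the second highest at 1071 FPKM, had a low mitosis score. Of 9 macrophage markers 5 fell and none rose (summed level 218 to 371 FPKM in siLuc and 114 to 235 FPKM in siYap), among them Emr1 and C1qa. Of 8 cholangiocyte markers 3 fell, Spp1 with a log2 fold change of -2.99, and their sum was 1939 to 5055 FPKM in siLuc and 161 to 1142 FPKM in siYap. Stellate cell and fibroblast markers had 3 of 10 higher and endothelial markers 2 of 8 higher, with none lower. Beside the shares over all genes, counts this small carry little weight. T cell markers summed to 4.10 to 27.5 FPKM in siLuc and 3.88 to 11.9 FPKM in siYap, with 1 of 7 lower, near the share over all genes. No marker of these lists was at 0 in all libraries, and their part in the mitosis result was not tested.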

How the data were processed

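Tumour RNA of 13 libraries was sequenced after ribosomal RNA removal (ScriptSeq Complete Gold kit, HiSeq2500), per the labels' protocols. Trimmomatic 0.30, TopHat2 2.0.8, Cufflinks and Cuffdiff 2.1.1 and build mm10 are named in the submitters' processing notes. Settings, annotation and the treatment of multiply mapped reads were not given in the sources used here. Per the file headers, each deposited table holds raw fragments per gene, which are estimated counts (97.6% to 98.0% of values within 1e-06 of a whole number), and FPKM scaled by Cuffdiff. The 3 genes marked as too deep to estimate were left out, and 21 with a failure mark in some library were kept.

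Estimated counts were rounded and tested with edgeR 4.0.16 (R 4.3.3): TMM scaling, the default filter by group, robust quasi-likelihood F test, siYap against siLuc, no covariates, Benjamini-Hochberg adjustment over 15132 genes, calls at an adjusted p under 0.05. The SE was taken as log2 fold change divided by the square root of F. Script output was checked on simulated counts drawn independently for each gene and library, so dependence between libraries or genes was not covered. Alternatives were other scalings and filters, limma 3.58.1 on log2(FPKM + 1) and log2(FPKM + 0.1), limma-voom, DESeq2 1.42.0, a block or digit term, sums per file-name number and leaving out libraries; fits of single digits were added after seeing the data. Gene coordinates are from GENCODE M21 (GRCm38).

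The genes, role groups, other lists and rule for named genes were chosen with earlier results of these data known. Each siYap value, with the siLuc range and median, is given for the 2 genes of each role group with the highest mean FPKM. It is also given for the 3 genes with the smallest p, and the 3 highest and 3 lowest log2 fold changes. The third highest, of Incenp, is below 0. From each other list up to 2 genes with the smallest p are named. Named outside that rule are Ncapd2, Ncapd3, Ncapg2, Fzr1, Ube2s, Cdc25a, Ttr, Apoa1, Cps1 and Fgb. The 7 genes without overlap and those with changed calls are named to account for them. The B cell and erythroid marker lists had 0 of 5 and 1 of 4 tested genes called, the latter lower. A series-wide FPKM table was not used here.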

Additional observations from a re-analysis of the deposited data

Results flagged for a closer look

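Gaps within groups were examined for 98 sets of values, the FPKM of the 48 mitosis genes and the mitosis score in each group, and in 8 of them 1 library stood apart from the rest by more than Dixon's 95% critical value (0.526 of the range for 8 libraries and 0.710 for 5). Chance flags about 1 in 20 such sets, and the genes share their libraries. siYap replicate 1 was the high library in 5 of the 8: Nuf2 stood there at 6.62 FPKM, Birc5 at 4.57 FPKM, Kif20b at 4.08 FPKM, Racgap1 at 3.26 FPKM and Mki67, which encodes the proliferation marker Ki-67, at 10.6 FPKM. siLuc replicate 2 was the high library for Cenpf, at 5.22 FPKM, and for Kif23, at 5.0 FPKM. The siLuc value of Cdc25c that stood apart was 2.72 FPKM, in replicate 8.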

How the results depend on the processing

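The number of mitosis genes called higher was 0 in every fit run, and at an unadjusted p under 0.05 it was also 0 with edgeR. With other scalings, filters, tests and a digit term, sums per file-name number or that number as a random effect, between 22 and 32 were called lower. In these fits 3732 to 5309 genes of all kinds were called in either direction. Leaving out each library in turn gave 13 to 33 mitosis genes lower, 3325 to 4633 genes of all kinds called, a median log2 fold change of the mitosis genes of -1.16 to -0.75 and a score difference of -1.05 to -0.75. Without siYap replicates 1 and 3 together, 2984 genes of all kinds were called. An adjusted p under 0.01 left 2362 genes in all and 11 mitosis genes lower. The libraries of digit 6 alone gave 38 and 0. With the replicate number as a block (a replicate block over numbers that both groups carry), 2325 genes in all were called and 10 mitosis genes were lower. Totals of all genes in this paragraph cover both directions, while those of mitosis genes cover genes called lower. The share of all genes called lower was not taken for the scaling, filter, test, term, block and 0.01 settings. Their mitosis counts therefore have no background share beside them. Deviations of same-numbered libraries correlated at -0.12, 0.13, 0.07, 0.12 and -0.09 for numbers 1 to 5. So few values cannot decide whether the numbers pair the samples, and the labels do not say. The log2 fold change changed sign for 8 genes, none past the threshold on either side: Cdc25b ranged from -0.48 to 0.084 without a library and was 0.63 in digit 6, Foxm1 ranged from -0.23 to 0.39 without a library and was -0.50 without siYap replicates 1 and 3 and -0.053 in sums per number, Pttg1 ranged from -0.026 to 0.25 and was -0.36 in digit 6, and Incenp ranged from -0.11 to 0.16 and was 0.022 with a mean count of at least 50, 0.035 with the random effect, 0.0062 and 0.031 on log2(FPKM + 1) and log2(FPKM + 0.1), and 0.15 in digit 7. Aurka ranged from -0.42 to 0.052 and was 0.16 in digit 7, Kif23 ranged from -0.38 to 0.18 and was 0.018 with the block, Cenpe was 0.072 and Mki67 0.22 in digit 6. The cause of these changes was not tested. On depth, the lowest count of a mitosis gene in a library was 15 fragments, 1 mitosis gene had a mean count under 50, and 44 of the 48 reached 1 FPKM in 5 libraries.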
